A study of Mus musculus with 4 samples.

Results

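Complement mRNAs were followed in whole mouse lung through 9 genes: the C1q chains C1qa, C1qb and C1qc, the central components C3 and C4b, the alternative pathway proteases Cfb and Cfd, and the anaphylatoxin receptors C3ar1 and C5ar1. They were chosen by symbol, and all 9 are among the 41079 genes of the count table. The study asked how loss of Rab44, a large Rab GTPase, changes the lung in allergic airway inflammation, and RNA was sequenced from 4 libraries, 1 of WT and 1 of Rab44-KO lung under normal conditions and the same under OVA-induced conditions. All mice were female littermates of 8 to 14 weeks on a C57BL/6 background, and the Rab44-KO line was made by editing Rab44 with CRISPR/Cas9. OVA-induced mice of both genotypes were given 100 μg ovalbumin (OVA, chicken egg albumin) with alum intraperitoneally on days 0, 7 and 14. Intranasal OVA (100 μg in 50 μL) followed daily on days 17 to 20, and the lungs were collected on day 21. Normal mice carry no treatment in the labels, although the protocol text also describes a PBS challenge, and how many mice were used per library is not given in the sources used here.

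Complement is a cascade of plasma and tissue proteins that tags microbes, immune complexes and dying cells. C1q starts the classical pathway, C4 and then C3 are cleaved and bound to the target, and factor D and factor B form the alternative pathway loop that amplifies C3 cleavage. The fragments C3a and C5a act on the receptors encoded by C3ar1 and C5ar1, which sit on myeloid cells, and in the lung these signals are known for their part in allergic airway inflammation. C1q is made mainly by macrophages, factor D is an adipokine also called adipsin, and C3 and factor B are made by hepatocytes, epithelium and leukocytes.

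Promoter sequence is shown for C1qb and C1qc because the 3 C1q chains lie side by side and their mRNAs had similar ratios in every comparison. On GRCm38 (GENCODE M21) C1qa lies at chr4:136895917-136898803, C1qc at chr4:136889804-136893065 and C1qb at chr4:136880129-136886187, all on the minus strand and within 18.7 kb. RefSeq promoters of GRCm38.p6, from 250 bases before to 50 bases after the gene start, were matched for 6 of the 9 genes, C1qb, C1qc, C3, Cfd, C3ar1 and C5ar1, and not for C1qa, C4b or Cfb. Both sequences below are written 5′ to 3′ on the minus strand, C1qb at chr4:136886151-136886450 and C1qc at chr4:136892865-136893164. Capitals mark GAGGAA, the core bound by the myeloid factor PU.1, on either strand, and in C1qc also a match to the NF-kB consensus.
C1qb: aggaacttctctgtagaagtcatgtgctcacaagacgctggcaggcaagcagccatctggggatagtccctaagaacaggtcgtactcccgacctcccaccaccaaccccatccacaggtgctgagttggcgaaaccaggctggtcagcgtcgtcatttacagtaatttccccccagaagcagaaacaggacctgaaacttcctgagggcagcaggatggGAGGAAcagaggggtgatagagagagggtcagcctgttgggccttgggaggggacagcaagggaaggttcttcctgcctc
C1qc: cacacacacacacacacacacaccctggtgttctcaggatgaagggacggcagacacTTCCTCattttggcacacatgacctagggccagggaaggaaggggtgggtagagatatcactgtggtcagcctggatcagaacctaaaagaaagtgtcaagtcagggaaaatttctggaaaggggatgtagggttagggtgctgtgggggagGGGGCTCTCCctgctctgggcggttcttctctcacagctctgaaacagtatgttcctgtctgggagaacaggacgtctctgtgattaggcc
The PU.1 core starts at -30 in C1qb and, on the opposite strand, at -193 in C1qc, and the NF-kB match starts at -41 in C1qc. These positions count from the RefSeq start, which is 13 bases upstream of the GENCODE start in C1qb and 151 bases downstream of it in C1qc, so in C1qc the NF-kB match lies inside the GENCODE gene. The core GAGGAA is found in 28.1% of 32544 RefSeq mouse promoters of the same length and the NF-kB consensus in 4.53%. The other motifs searched on both strands were the Maf half-site TGCTGAC (4.65% of promoters), the STAT site TTCNNNGAA (8.33%), the E-box CACGTG (7.17%) and the D-box TTATGNAA (3.39%). None of these 6 motifs was found in the windows of C3, Cfd, C3ar1 or C5ar1. A match describes the letters of the window and is no evidence of binding.

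Total counts were 18112901 to 19910236 per library, so libraries differed little in depth. Levels within a gene are given as CPM (counts scaled to library size) after TMM scaling, and levels between genes as the deposited TPM, which corrects for length. A difference is the log2 ratio of CPM, with an exact 95% Clopper-Pearson interval in brackets that covers counting error only, and over 2-fold means beyond 1 on this scale. With 1 library per condition there is no replicate check, no p-value was computed, and every comparison is between libraries and not conditions. The 4 comparisons also share libraries and are not independent of each other. Where 4 values are listed without library names, the normal libraries come first and, within each condition, WT comes before Rab44-KO. Under normal conditions Rab44 itself had 251 counts in WT and 1 in Rab44-KO, and under OVA-induced conditions 810 and 0. Lung epithelial genes were present in every library, with none of 8 markers at 0.

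In the normal WT lung the genes ranked by TPM as C3 (244), C4b (97.5), Cfd (79.5), C1qa (63.3), C1qb (50.8), C1qc (43.9), Cfb (34.1), C5ar1 (10.5) and C3ar1 (2.45). C3 mRNA was thus the most abundant of the 9 and the receptor mRNAs were the least. In the OVA-induced WT lung C3 stood at 834 TPM, C1qa at 216, C1qb at 197, C4b at 171, C1qc at 142, Cfb at 78.1, Cfd at 20.9, C5ar1 at 17.6 and C3ar1 at 8.02. Cfd had moved from the third to the seventh place and C1qa and C1qb had passed C4b. Without replicates it cannot be said which neighbours in these orders differ beyond the spread between animals. The summed TPM of the 9 genes was 626 and 835 in normal WT and Rab44-KO lungs and 1684 and 1337 in the OVA-induced ones.

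**Figure D1:**
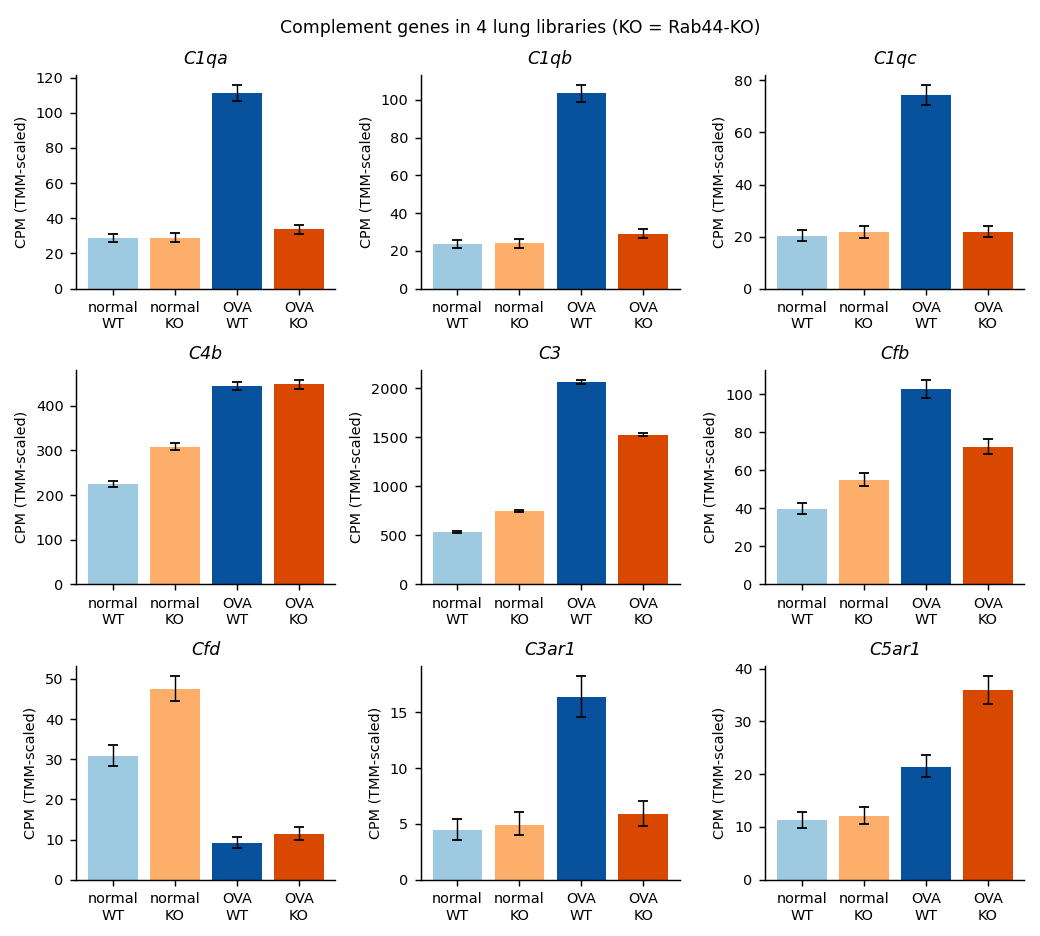
CPM (TMM-scaled, linear axes from 0) of each of the 9 complement genes in the 4 lung libraries. Bars are single libraries and error bars are exact 95% Poisson intervals of counting error. The C1q chains and C3ar1 stand high in the OVA-induced WT library alone, C5ar1 is highest in the OVA-induced Rab44-KO library, and Cfd is low in both OVA-induced libraries.

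The WT lung after OVA had more mRNA of 6 complement genes by over 2-fold, C1qa, C1qb, C1qc, C3, Cfb and C3ar1, and less of 1, Cfd. Over 2-fold higher were 8.99% of the 19023 genes that reached 10 counts in either library, and over 2-fold lower 5.2%. In the Rab44-KO lung OVA went with over 2-fold higher C3 and C5ar1 and lower Cfd, against 6.44% of 19073 genes higher and 3.85% lower. Among genes that reached 100 counts in either library, the shares higher and lower were 5.79% and 1.64% in WT and 2.4% and 1.35% in Rab44-KO. On the TPM scale the same counts of complement genes were obtained, while the share of all over 2-fold differences that were higher went from 62.6% to 72.8% in Rab44-KO and from 63.4% to 53.6% in WT. The median log2 ratio of the 9 genes was 1.87 in WT and 0.28 in Rab44-KO, and that of all genes tested was 0.00 and -0.01.

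Between genotypes under normal conditions none of the 9 genes differed by over 2-fold, where 2.77% of 18718 genes were higher in Rab44-KO and 2% lower (0.334% and 0.0835% of those that reached 100 counts). Under OVA-induced conditions 4 of the 9, C1qa, C1qb, C1qc and C3ar1, were over 2-fold lower in Rab44-KO and none was higher. The background was 8.4% of 19259 genes higher and 7.34% lower. Among genes that reached 100 counts in either library, 3.64% were higher and 4.34% lower. On the TPM scale the background was 13.5% higher and 4.03% lower, so that 77% of these differences were higher against 53.4% on the CPM scale, and C5ar1 was then over 2-fold higher. On the TPM scale the median of all genes was 0.293 in this comparison, 0.114 in the OVA response of Rab44-KO and -0.165 in that of WT, against -0.02, -0.01 and 0.00 by CPM, and the plot of ratios shows both scales. The median of the 9 genes was 0.16 between genotypes under normal conditions and -0.51 under OVA-induced conditions, the latter -0.18 on the TPM scale.

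**Figure D2:**
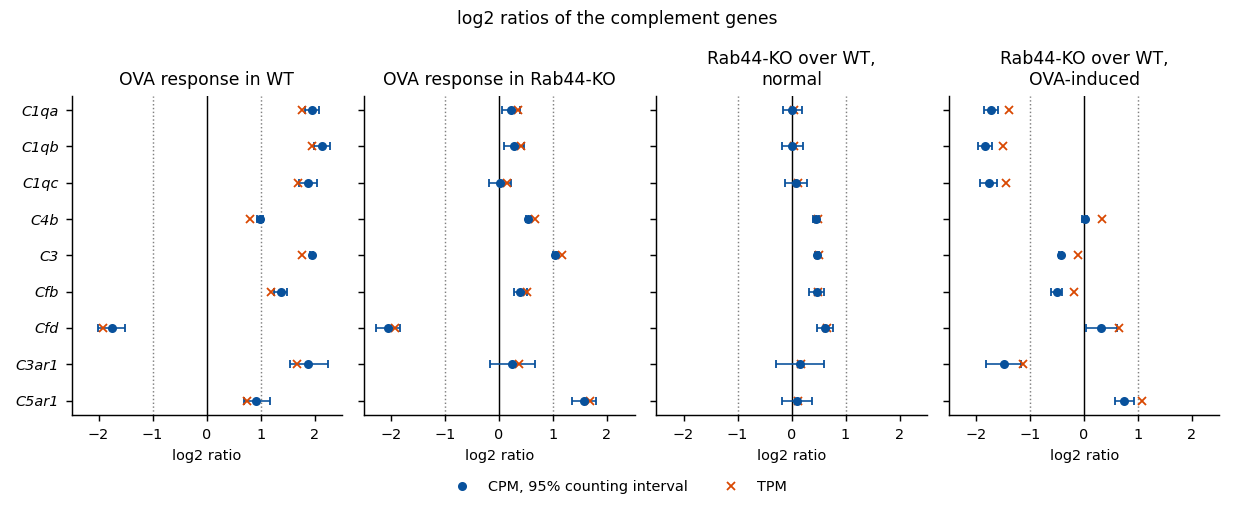
log2 ratios of the 9 complement genes in the 4 comparisons, with CPM ratios and their 95% counting intervals as circles and TPM ratios as crosses. Dotted lines mark 2-fold. In the OVA-induced genotype comparison C1qa, C1qb, C1qc and C3ar1 lie below -1 on both scales, C5ar1 is at 0.74 by CPM and 1.07 by TPM, and C4b is at 0.01 and 0.34.

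C1qa, C1qb and C1qc encode the 3 chains that assemble into C1q, the recognition molecule of the classical pathway. C1qa had 553 and 530 counts in normal WT and Rab44-KO lungs and 2152 and 658 in the OVA-induced ones, or 28.8, 29.0, 111 and 33.8 CPM. Counts of C1qb were 453, 436, 2001 and 566 in the same order, or 23.6, 23.9, 103 and 29.0 CPM. Those of C1qc were 391, 395, 1441 and 427, or 20.4, 21.6, 74.4 and 21.9 CPM. For each chain the OVA-induced WT library was high and the other three were close together.

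In WT the OVA-induced over the normal library gave 1.95 for C1qa (1.81 to 2.09), 2.13 for C1qb (1.98 to 2.28) and 1.87 for C1qc (1.71 to 2.03), which is 3.86-fold, 4.38-fold and 3.65-fold higher. In Rab44-KO the same ratios were 0.22 (0.05 to 0.38), 0.28 (0.10 to 0.46) and 0.02 (-0.18 to 0.22). Genotypes differed under normal conditions by 0.01, 0.02 and 0.09, with all 3 intervals spanning 0. Under OVA-induced conditions C1qa was 3.29-fold lower, C1qb 3.56-fold lower and C1qc 3.40-fold lower in Rab44-KO, at -1.72 (-1.85 to -1.59), -1.83 (-1.97 to -1.70) and -1.76 (-1.92 to -1.61). The OVA response was thus smaller in Rab44-KO by 1.73 to 1.85 log2 units, and the counting intervals of these differences ran from -2.11 to -1.52 over the 3 chains.

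The proportions of the C1q mRNAs shifted little while their sum changed. C1qa made up 38.9% to 40.3% of the summed C1q TPM, C1qb 31.8% to 35.5% and C1qc 25.6% to 28.8% over the 4 libraries. The sum was 158 and 165 TPM in normal WT and Rab44-KO lungs and 556 and 204 in the OVA-induced ones. By counts the summed chains were 3.97-fold higher after OVA in WT, at 1.99 (1.90 to 2.08), and 3.41-fold lower in Rab44-KO than in WT under OVA-induced conditions, at -1.77 (-1.85 to -1.69). The C1q mRNAs are short, and the OVA-induced genotype ratio varied with gene length. The genes nearest in length had a median of -0.46 for C1qa, -0.45 for C1qb and -0.46 for C1qc, and with that median removed the 3 ratios were -1.26, -1.38 and -1.30.

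Macrophage marker genes also differed between these libraries. The 13 markers of monocytes and interstitial macrophages summed to 1318, 1383, 1654 and 1350 CPM, with no marker at 0. Apoe alone made up 631, 652, 880 and 548 CPM of this sum. After OVA in WT 5 of the 13 were over 2-fold higher and 1 lower, and between genotypes with OVA 1 was higher and 4 lower in Rab44-KO. Trem2, a lipid-sensing receptor of macrophages, had 41, 60, 390 and 68 counts, and Ms4a7, a tetraspanning protein of tissue macrophages, had 47, 55, 332 and 74. Lyve1, a marker of perivascular macrophages and lymphatic vessels, went the other way with 6410, 6956, 3122 and 7637. The 9 alveolar macrophage markers summed to 372, 343, 604 and 293 CPM, also with none at 0. Car4 alone made up 205, 167, 192 and 118 CPM of this sum. With OVA 3 of the 9 were over 2-fold lower and 1 higher in Rab44-KO than in WT. Marco, a scavenger receptor, had 145, 379, 912 and 76 counts and so was higher in Rab44-KO than in WT under normal conditions, where the C1q chains were level. In bulk lung, fewer macrophages and less C1q mRNA per macrophage cannot be told apart, and the part of these cells in the C1q values was not tested.

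C3 and C4b encode the thioester proteins at the centre of the cascade, C4 for the classical and lectin pathways and C3 for all of them. C3 (chr17:57203970-57228136) had 10283 and 13596 counts in normal WT and Rab44-KO lungs and 39924 and 29760 in the OVA-induced ones, or 536, 745, 2061 and 1526 CPM. Both OVA-induced libraries were above both normal ones, and the genotypes stood in opposite order in the 2 conditions. The OVA response was 1.94 in WT (1.91 to 1.98), which is 3.85-fold, and 1.03 in Rab44-KO (1.01 to 1.06), which is 2.05-fold and just past the threshold. Rab44-KO was higher than WT by 0.48 (0.44 to 0.51) under normal conditions and lower at -0.43 (-0.46 to -0.41) under OVA-induced conditions. The OVA responses differed by -0.91 (-0.95 to -0.87), Rab44-KO minus WT. The OVA-induced genotype ratio of C3 was -0.11 on the TPM scale and -0.59 after the median of genes of like length was removed.

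C4b (chr17:34728380-34743882) had 4317, 5631, 8607 and 8733 counts, or 225, 309, 444 and 448 CPM. The normal WT library was the lowest and the OVA-induced libraries of both genotypes were level by CPM. The OVA response was 0.98 in WT (0.93 to 1.04), just under the threshold (1.04 after the median of genes of like length was removed), and 0.54 in Rab44-KO (0.49 to 0.59). Rab44-KO was above WT by 0.46 (0.40 to 0.51) under normal conditions, and under OVA-induced conditions the ratio was 0.01 (-0.03 to 0.05). The direction of that last ratio depended on scaling, with 0.34 on the TPM scale and -0.13 after the median of genes of like length was removed. Under normal conditions the TPM of C3 was 2.51 times that of C4b in WT and 2.54 times in Rab44-KO, and under OVA-induced conditions 4.88 and 3.59 times. C4b shares 7.48% of its 150-base windows with its paralog C4a, so reads there could be counted for either, but C4a had only 20, 25, 52 and 34 counts.

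Cfb encodes factor B, the protease zymogen of the alternative pathway C3 convertase. Cfb (chr17:34856374-34862518) had 763 and 1004 counts in normal WT and Rab44-KO lungs and 1989 and 1410 in the OVA-induced ones, or 39.7, 55.0, 103 and 72.3 CPM. The libraries stood in the same order as for C3. The OVA response was 1.37 in WT (1.25 to 1.49), which is 2.58-fold, and 0.39 in Rab44-KO (0.28 to 0.51). Rab44-KO was above WT by 0.47 (0.33 to 0.61) under normal conditions and below it at -0.51 (-0.61 to -0.41) under OVA-induced conditions. The last ratio was -0.18 on the TPM scale and -0.32 after the median of genes of like length was removed. The OVA responses differed by -0.98 (-1.14 to -0.81). Of the 150-base windows of Cfb, 61.8% also lie in Gm20547, a readthrough gene model that is not listed in the count table.

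C3 and factor B are also major products of the liver. The 6 hepatocyte markers summed to 1.62, 1.37, 7.18 and 5.85 CPM, with 2 at 0 in normal WT and 3 in normal Rab44-KO. The 5 mesothelial markers summed to 236, 284, 350 and 303 CPM, with none at 0. Of these, 4 were over 2-fold higher after OVA in WT and 1 in Rab44-KO, and without OVA 3 were higher by over 2-fold in Rab44-KO. The 7 genes of the acute phase list, which include the cytokines Il6, Il1b and Tnf, summed to 749, 801, 1316 and 745 CPM. Of them 5 were over 2-fold higher after OVA in WT and 5 over 2-fold lower in Rab44-KO than in WT with OVA. The part of the hepatocyte, mesothelial and acute phase lists in the C3 and Cfb values was not tested.

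Cfd encodes factor D, the serine protease that cleaves factor B, and it was the only one of the 9 genes that was over 2-fold lower after OVA. Cfd (chr10:79890853-79892655) had 592 and 867 counts in normal WT and Rab44-KO lungs and 177 and 223 in the OVA-induced ones, or 30.8, 47.5, 9.14 and 11.4 CPM. Both OVA-induced libraries were below both normal ones, and in each condition the Rab44-KO library was the higher. The OVA response was -1.75 in WT (-2.0 to -1.51), which is 3.37-fold lower, and -2.05 in Rab44-KO (-2.27 to -1.84), which is 4.15-fold lower. These differed by -0.30, with a counting interval of -0.62 to 0.02 that spans 0. Rab44-KO was above WT by 0.62 (0.47 to 0.78) under normal conditions and by 0.32 (0.03 to 0.62) under OVA-induced conditions. The last ratio was 0.65 on the TPM scale and 0.75 after the median of genes of like length was removed. Under normal conditions the TPM of Cfb was 0.429 times that of Cfd in WT and 0.386 times in Rab44-KO, and under OVA-induced conditions 3.74 and 2.11 times, so the ranking of these partner proteases turned over with OVA.

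The 8 adipocyte markers were also lower after OVA as a sum. They summed to 69.0, 107, 21.0 and 48.5 CPM, with 1 marker at 0 in normal Rab44-KO. Of the 7 with enough counts, 5 were over 2-fold lower after OVA in WT and 4 in Rab44-KO, and none was higher. Adipoq, the adipocyte hormone adiponectin, had 92, 159, 25 and 59 counts. The 9 clock genes summed to 1550, 1621, 630 and 359 CPM. Besides clock output genes this list holds the clock activators Arntl (Bmal1) and Npas2. After OVA 7 of the 9 were over 2-fold lower and 2 higher in each genotype. The part of fat tissue in the samples and of the hour of collection in the Cfd values was not tested.

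C3ar1 encodes the receptor for C3a. C3ar1 (chr6:122847138-122856161) had 85 and 90 counts in normal WT and Rab44-KO lungs and 317 and 114 in the OVA-induced ones, or 4.43, 4.93, 16.4 and 5.85 CPM. As with C1q, 1 library, OVA-induced WT, was high and the others were low. The OVA response was 1.88 in WT (1.54 to 2.25), which is 3.69-fold, and 0.25 in Rab44-KO (-0.17 to 0.66). Genotypes differed by 0.16 (-0.29 to 0.60) under normal conditions, and Rab44-KO was 2.80-fold lower, at -1.48 (-1.81 to -1.17), under OVA-induced conditions. The OVA responses differed by -1.64 (-2.17 to -1.11), the widest interval of the 9 genes, and C3ar1 also had the fewest counts in the normal libraries.

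C5ar1 encodes the main receptor for C5a, a strong attractant of neutrophils. C5ar1 (chr7:16246743-16259540) had 217 and 221 counts in normal WT and Rab44-KO lungs and 415 and 700 in the OVA-induced ones, or 11.3, 12.1, 21.4 and 35.9 CPM. It was the only one of the 9 whose ratio of OVA-induced over normal library was higher in Rab44-KO than in WT. This OVA response was 0.92 in WT (0.68 to 1.17) and 1.57 in Rab44-KO (1.35 to 1.79), a difference of 0.64 (0.32 to 0.97). Genotypes differed by 0.10 (-0.18 to 0.38) under normal conditions, and Rab44-KO was 1.68-fold higher, at 0.74 (0.57 to 0.92), under OVA-induced conditions. That ratio was 1.07 on the TPM scale and 0.99 after the median of genes of like length was removed, on either side of 2-fold. The ratio of C5ar1 to C3ar1 by TPM was 4.27 and 4.11 in normal WT and Rab44-KO lungs and 2.19 and 10.3 in the OVA-induced ones.

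The summed neutrophil markers stood in the same order of libraries as C5ar1, though not every marker did. The 10 markers summed to 116, 143, 593 and 724 CPM, with 3 at 0 in normal WT and none at 0 elsewhere. After OVA 9 of them were over 2-fold higher in each genotype, and between genotypes with OVA 2 were higher in Rab44-KO and none lower. S100a8, a calcium-binding protein abundant in neutrophils, had 336, 367, 2012 and 2693 counts. With OVA 3 of the 10 ran against C5ar1 and were higher in WT than in Rab44-KO, Ltf with 795 and 462 counts, Retnlg with 2630 and 2015 and Camp with 57 and 42. Macrophages and other cells also carry C5ar1, and the part of neutrophils in its values was not tested.

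**Figure D3:**
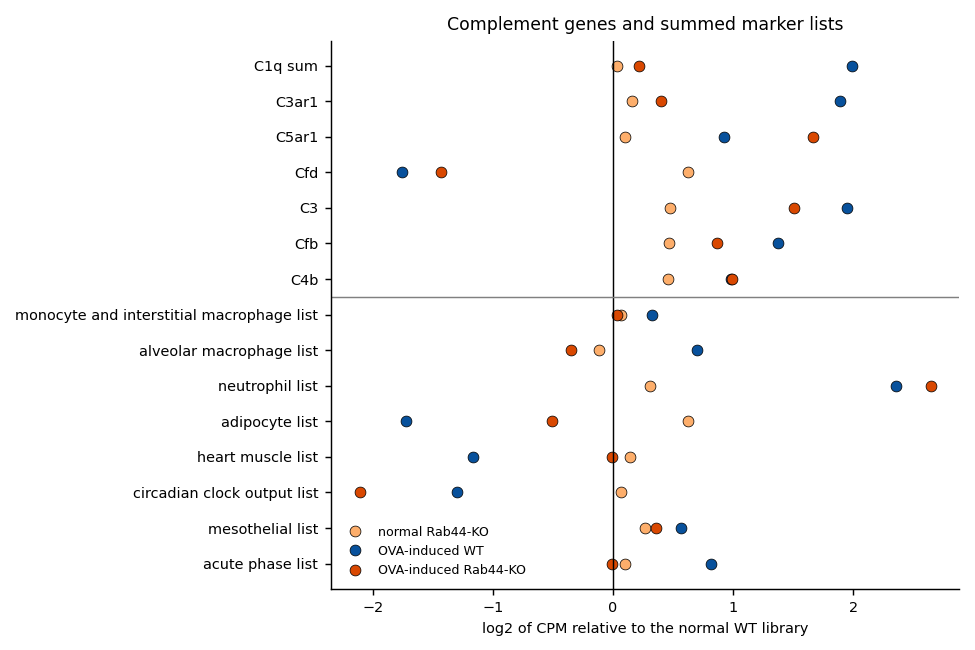
Complement genes (top) and summed marker lists (bottom) as log2 of CPM relative to the normal WT library, 1 point for each of the other 3 libraries. The C1q sum is at 1.99 in OVA-induced WT, where both macrophage lists are also at their highest, while Cfd and the adipocyte list lie below 0 in both OVA-induced libraries.

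Outside these 9 genes, 47 other complement genes were listed by role. In WT 9 of the 40 with enough counts were over 2-fold higher after OVA and none lower, with a median of 0.14 (-0.03 on the TPM scale), and in Rab44-KO 1 of 35 was higher and 2 lower, with a median of 0.05 (2 higher, 1 lower and 0.16 on the TPM scale). Under normal conditions none of 37 was higher in Rab44-KO and 1 was lower, Cpn2, at 10 and 4 counts, with an interval that spans 0 and a ratio within 2-fold on the TPM scale. Under OVA-induced conditions 1 of 39 was higher in Rab44-KO, 6 were lower and the median was -0.38, which on the TPM scale became 3 higher, 3 lower and a median of -0.05. The shares of all genes given above for each comparison are the background for these counts, and the other complement genes had lower medians after OVA in WT than the 9 described here.

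Of the initiators, 2 of 6 classical pathway genes were over 2-fold higher after OVA in WT, C4a and the little-expressed C1rb, and none of 6 lectin pathway genes was. The single other alternative pathway gene, Cfp, encodes properdin, the stabiliser of the C3 convertase. It had 298, 246, 708 and 380 counts, with an OVA response of 1.24 (1.04 to 1.44) in WT and 0.53 (0.30 to 0.77) in Rab44-KO. The OVA-induced genotype ratio of Cfp was -0.91 (-1.09 to -0.73).

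Hc encodes C5, the source of C5a, and was the only one of 4 terminal pathway genes over 2-fold higher after OVA in WT. It had 7452 and 6750 counts in normal WT and Rab44-KO lungs and 19342 and 11544 in the OVA-induced ones. Its OVA response was 1.36 in WT (1.32 to 1.40) and 0.68 in Rab44-KO (0.64 to 0.72), and the OVA-induced genotype ratio was -0.75 (-0.79 to -0.72), opposite in direction to that of its receptor gene C5ar1. C7, a subunit of the membrane attack complex, had 12772, 10790, 9476 and 5690 counts and was at -0.44 after OVA in WT and -1.02 in Rab44-KO, the latter within 2-fold on the TPM scale.

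Among soluble regulators, Serping1, which encodes the C1 inhibitor, had 7621, 8239, 7499 and 6998 counts. Its log2 ratios by CPM lay between -0.33 and 0.19 in all 4 comparisons. Cpn1, the catalytic subunit of the carboxypeptidase that inactivates anaphylatoxins, had 73, 73, 128 and 58 counts and an OVA-induced genotype ratio of -1.15 (-1.62 to -0.69), or -0.81 on the TPM scale. By CPM in OVA-induced Rab44-KO 3 of 7 soluble regulators were over 2-fold lower than in WT, Cpn1, Cfi and C4bp, and Cfi and C4bp had at most 62 counts in any library. By CPM no membrane regulator of 8 was over 2-fold in any comparison, while on the TPM scale Cd46 was higher in Rab44-KO with OVA.

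Of the other receptor genes, the integrin chains Itgam, Itgax and Itgb2, which form complement receptors 3 and 4, were all over 2-fold higher after OVA in WT. Itgax had 970, 961, 2987 and 1079 counts, with OVA responses of 1.61 in WT and 0.07 in Rab44-KO and an OVA-induced genotype ratio of -1.48 (-1.58 to -1.38), close to that of C3ar1. Itgam had 495, 570, 1520 and 1626 counts, with OVA responses of 1.61 and 1.42 and a genotype ratio of 0.09 (-0.01 to 0.19). Their shared partner Itgb2 lay between, with 1728, 1605, 5728 and 2958 counts and a ratio of -0.96 (-1.03 to -0.90). Of the windows of Itgam 62.7% also lie in the gene model Gm49368, which is not listed in the count table. C5ar2, the second C5a receptor, lies next to C5ar1 and had 88, 74, 118 and 125 counts, with a genotype ratio of 0.07 (-0.30 to 0.45) under OVA-induced conditions. Cd93, an endothelial and myeloid glycoprotein once described as a C1q receptor, had 8596, 9810, 6438 and 15482 counts and was over 2-fold higher in Rab44-KO with OVA, at 1.26 (1.21 to 1.30). By CPM it was the only one of the 47 in this position, and on the TPM scale Masp2, at 1.18, and Cd46, at 1.18, joined it. Of the windows of Masp2 50.1% also lie in Tardbp.

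**Figure D4:**
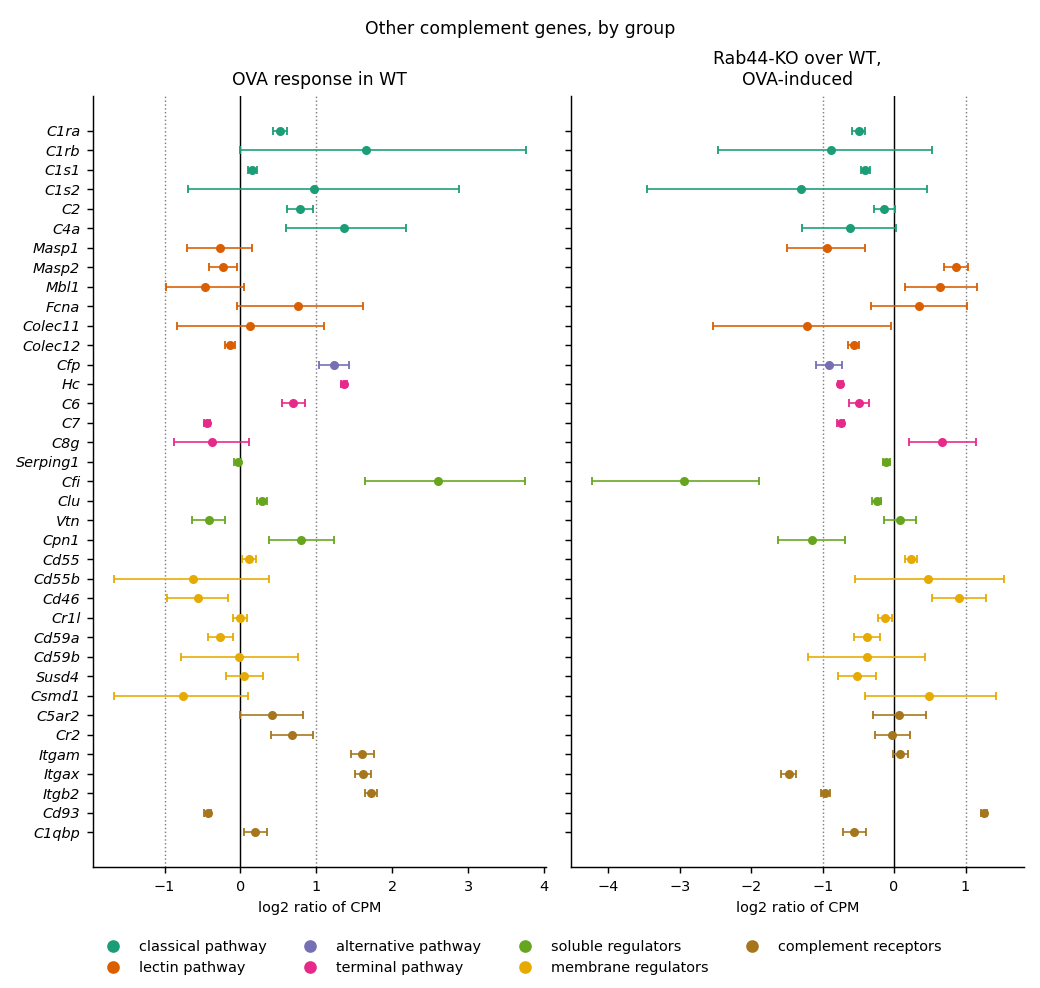
log2 ratios of CPM with 95% counting intervals for 37 other complement genes, coloured by group, for the OVA response in WT (left) and Rab44-KO over WT under OVA-induced conditions (right), with 2-fold as dotted lines. Itgax lies at 1.61 on the left and -1.48 on the right, Itgam at 1.61 and 0.09, and Cd93 at -0.43 and 1.26.

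Gene profiles over the 4 libraries were compared by the root mean square difference of centred log2 CPM, among 6880 genes with at least 500 counts in every library. Nearest to the summed C1q chains, besides C1qa itself, were the lysosomal protease Ctsd (0.0378), the macrophage glycoprotein Cd68 (0.0463), the cysteine protease Ctss (0.0614) and the beta-glucan receptor Clec7a (0.1). Ctsd had 10124, 10124, 40287 and 11415 counts, and Cd68 had 591, 583, 2352 and 651. Nearest to C3ar1 were Cd52 (0.0546), C1qa (0.0975) and Itgax (0.118). With 4 points per profile many genes can lie close, and the measure only describes likeness of levels.

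The other 4 profiles had different neighbours. C3 was nearest to Sla (0.135), an adaptor of antigen receptor signalling, and Spp1 (0.215), the secreted protein osteopontin, was the last of its 5 nearest genes. Cfb was nearest to Cxcl15 (0.0528), a chemokine of lung epithelium, which had 16218, 19357, 39638 and 29089 counts, and then to Cd14 (0.104), the co-receptor for lipopolysaccharide. C5ar1 was nearest to the heat shock protein gene Hsph1 (0.0738) and the NF-kB inhibitor gene Nfkbia (0.111). Cfd had no close neighbour in this pool, the nearest being Angptl2 (0.326), a secreted angiopoietin-like protein, and the clock gene Per2 (0.362). With OVA Cfd itself had 177 and 223 counts, below the pool minimum of 500. Genes at its level, such as Adipoq, were therefore not searched. C4b ranged over only 1.99-fold and was not compared.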

How the data were processed

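Processed files of 4 lung RNA-seq libraries were used, 1 per condition, grouped by their labels. The authors trimmed 150-base paired-end reads from a directional kit, aligned them to GRCm38 with HISAT2 and deposited raw counts per gene from featureCounts. Tool versions and the handling of strand and of multiply matching reads are not given in the sources used here. The authors also deposited TPM, which over 15583 well-counted genes were the counts divided by 1 length per gene and scaled.

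Counts were scaled by TMM over the 4 libraries in edgeR 4.0.16 (R 4.3.3, Python 3.11.15, scipy 1.17.1), with factors of 0.973 to 1.02. Log2 ratios used a prior count of 0.125 for genes that reached 10 counts in either library compared. Rab44 was 239-fold lower (42.4 to 9460 by counting error) in normal Rab44-KO, which had 1 count. Where a library had no count, its fold was taken at a floor of 3 counts, so Rab44 was at least 272-fold lower in OVA-induced Rab44-KO. CPM have exact Poisson intervals, and the interval of a difference of responses is by the delta method. No interval covers variation between animals, and reads lack molecular identifiers. The steps were tested on simulated counts for the 4 comparisons over 41079 genes.

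The complement genes, marker lists and tests were chosen with earlier results of these data known. Other complement genes were named when over 2-fold in any comparison with at least 100 counts, together with C4a, C5ar2, Hc, Cfp and Serping1 whatever their values, and 1 listed gene is not reported here. Other complement genes named, some of them with low counts, were chosen after their values were seen. Up to 4 genes were named per marker list and 5 per profile. The eosinophil, heart muscle, fibroblast and interferon-gamma lists are given in the closing section. Positions are from GENCODE M21 on GRCm38. Alternatives were DESeq2 1.42.0 size factors, total counts, TMM on 2 libraries, a prior count of 2, TPM with a pseudocount of 0.1, count minimums of 1 and 100, a 1.5-fold threshold, intervals wholly beyond 2-fold, C4b summed with C4a, and, added after seeing the data, removal of the median ratio of the 501 genes nearest in length.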

Additional observations from a re-analysis of the deposited data

Results flagged for a closer look

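By CPM some genes went in opposite directions in the 2 conditions or genotypes, beyond their counting intervals. Those given here come from the 9 genes and the other complement genes named by rule. Outside this choice C1ra, C1s1, Clu and Masp2 were among the listed genes that did so too. The differences were not tested, because each rests on 1 library per condition. The log2 ratio of Rab44-KO over WT was 0.48 under normal and -0.43 under OVA-induced conditions for C3, and 0.47 and -0.51 for Cfb. For Serping1, which encodes the C1 inhibitor, it was 0.19 and -0.11 by CPM, but the second value was 0.22 on the TPM scale and 0.15 with the length trend removed, so its direction depended on scaling. The OVA response of Cd93 was -0.43 in WT and 0.56 in Rab44-KO.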

How the results depend on the processing

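No paired analysis was possible because each condition has 1 library, and for the same reason no library could be left out. Over the alternatives, 183 of 220 values of the 9 genes stayed within their counting intervals, 37 moved beyond them and 0 reversed among those whose interval lay to one side of 0. The other complement genes are not in these counts, and some of them reversed. On the TPM scale Serping1, Clu and Cr1l did so between genotypes with OVA, and C1s1 and Cd55 in the OVA response of WT. With the length trend removed, further reversals included Cd55 between genotypes with OVA and C1qbp in the OVA response of WT. Of the 37 values of the 9 genes that moved, 18 did so on the TPM scale, 16 after removal of the length trend and 3 with total counts. The median of the 9 genes in the OVA response of WT was 1.67 on the TPM scale and also 1.67 with the length trend removed, against 1.87. The median of Rab44-KO over WT under OVA-induced conditions was -0.18 on the TPM scale, against -0.51, and the median difference of the OVA responses was -0.67, against -0.98. With a 1.5-fold threshold 9 of the 9 genes differed after OVA in WT (28.3% of all genes did), 3 in Rab44-KO (23%), 1, Cfd, between genotypes under normal conditions (11.4%) and 5 with OVA (35.8%). With a minimum of 1 count the shares of all genes over 2-fold higher and lower were 16% and 12.6% after OVA in WT, 14.8% and 11.8% in Rab44-KO, 11.7% and 9.65% between genotypes under normal conditions and 16.5% and 13.3% with OVA. Precision is lowest for C3ar1, and the spread between animals is unknown for every gene.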

Other observations

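Lists not used above also differed between libraries, given as WT and Rab44-KO under normal conditions and then the same with OVA. The 6 eosinophil markers summed to 23.0, 24.9, 57.9 and 32.0 CPM, and 4 of 5 with enough counts were over 2-fold lower in Rab44-KO than in WT with OVA. The other of these 5, Ear1, was higher, with 258 counts (13.3 CPM) in OVA-induced WT and 436 (22.4 CPM) in OVA-induced Rab44-KO. Epx, eosinophil peroxidase, had 1 count in OVA-induced WT and was at 0 in the other libraries. The 9 interferon-gamma response genes summed to 508, 562, 526 and 339 CPM, and the 8 fibroblast genes to 1680, 1795, 1989 and 1564. The 6 heart muscle genes summed to 683, 753, 305 and 678 CPM, and 5 of them were over 2-fold lower after OVA in WT.

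C5 and C3 are the sources of the anaphylatoxins, and their mRNAs were not in a fixed proportion. The ratio of Hc, which encodes C5, to C3 by TPM was 0.678 and 0.464 in normal WT and Rab44-KO lungs and 0.453 and 0.363 in the OVA-induced ones. The TPM of C3 was 7.17, 7.2, 10.7 and 11.2 times that of Cfb in the same libraries, so this ratio was alike between genotypes in each condition.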
